A study of Homo sapiens with 33 samples.

Results

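HOX genes are the homeobox genes of clusters A to D, and the members described here were all rows of the deposited expression matrix named exactly HOXA, HOXB, HOXC or HOXD plus digits, with no antisense or readthrough transcript. There were 39 of them among 58302 rows: 11 HOXA, 10 HOXB, 9 HOXC and 9 HOXD genes. RNA sequencing was performed on 33 libraries of 6 established lines. H2052, H2452, H28 and MSTO-211H are malignant pleural mesothelioma (MPM) cell lines that are sensitive to palbociclib, an inhibitor of the cell cycle kinases CDK4 and CDK6. MPP89, an MPM line with a mutated RB1 gene, and MeT-5A, normal mesothelial cells immortalized by SV40, are resistant. Each line is a single culture model with no tissue around it. Cells received the vehicle DMSO (14 libraries) or 1 µM palbociclib (14 libraries) for 9 to 10 days. In 4 further libraries, 1 per sensitive line, palbociclib was washed out for 48 h, and 1 MeT-5A library came from untreated cells. H2452, H28 and MSTO-211H had 3 pairs of DMSO and palbociclib libraries, H2052 and MPP89 had 2, and MeT-5A had 1.

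HOX genes encode homeodomain transcription factors that give cells along the body axis their positional identity. Within a cluster, genes at one end (low numbers) act towards the head and genes at the other end (high numbers) act towards the tail, limbs and genital tract. Adult cells often keep the HOX pattern of the place they came from, held open by Trithorax proteins and silenced by Polycomb proteins. Levels are given as CP20M, the authors' counts scaled to 20 M reads per library. Comparisons of level between genes use CP20M per kb of exon, but the states defined next do not take exon length into account. A gene was called on in a group when every library had at least 100 CP20M, off when every library had less than 10, and intermediate otherwise. These are bulk cultures, so fewer cells with a transcript and less transcript per cell cannot be told apart.

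The labelled mesothelial origin was only partly visible in marker genes. Of 12 mesothelial markers, 9 were on in H2052, 8 in H2452, 6 in MPP89 and MeT-5A, 5 in H28 and 4 in MSTO-211H under DMSO. MSLN, CALB2, PDPN and THBD were off in H28. LRRN4, PDPN and KRT19 were off in MSTO-211H, and WT1 and KRT19 in MeT-5A. KRT5 was off in every line except H2452. Of 10 markers of other cell types, 7 were off in MSTO-211H, 6 in H2052, H2452 and MeT-5A, 5 in H28 and only 2 in MPP89. The T cell marker CD3E was off in all 6 lines. CD68 was on in all of them, and CLDN4, an epithelial claudin, was on in H2452 and H28. Depth could be estimated for 20 libraries and ranged from 12.8 to 18.7 M reads, so that 1 read was worth at most 1.57 CP20M. One control stood apart for HOXB3 and HOXB6: MSTO-211H DMSO replicate 2 had 1397 CP20M of HOXB3 and 364 of HOXB6, against 2520 and 3223, and 800 and 740, in the other two.

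The clusters span 107 kb on chromosome 7 (HOXA), chr17:48528526-48728750 (HOXB, 200.2 kb), chr12:53938831-54056030 (HOXC, 117.2 kb) and chr2:176092721-176190907 (HOXD, 98.2 kb) on GRCh38. Their genes are closely packed, and 16 members share exon sequence with another gene on the same strand and 20 with a gene on the opposite strand. For HOXA7, 62.5% of the exon length lies opposite HOXA-AS3. The strand setting used in read counting was not given in the sources used here, so reads of a gene and of its antisense partner could not be separated with certainty.

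Upstream sequences are shown for 2 pairs of neighbours on which the results turn. The RefSeq starts of HOXA9 and HOXA10 lie 8.78 kb apart, and the genes were at very different levels in H2452 cells. Those of HOXD4 and HOXD8 lie 21.8 kb apart, and the genes moved in opposite directions under palbociclib in H28 cells. Each line holds the 250 bases before the RefSeq transcription start (GRCh38.p14), 5′ to 3′ on the strand of the gene, with every CG dinucleotide in capitals. The windows are chr7:27165538-27165787 (minus strand) for HOXA9, chr7:27174321-27174570 (minus) for HOXA10, which has a second entry not shown, chr2:176151300-176151549 (plus) for HOXD4 and chr2:176129455-176129704 (plus) for HOXD8.
HOXA9: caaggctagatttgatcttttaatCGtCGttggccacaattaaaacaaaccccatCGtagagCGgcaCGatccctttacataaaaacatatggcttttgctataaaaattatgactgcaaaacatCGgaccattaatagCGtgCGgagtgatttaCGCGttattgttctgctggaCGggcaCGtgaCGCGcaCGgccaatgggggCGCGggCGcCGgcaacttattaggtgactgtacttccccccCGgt
HOXA10: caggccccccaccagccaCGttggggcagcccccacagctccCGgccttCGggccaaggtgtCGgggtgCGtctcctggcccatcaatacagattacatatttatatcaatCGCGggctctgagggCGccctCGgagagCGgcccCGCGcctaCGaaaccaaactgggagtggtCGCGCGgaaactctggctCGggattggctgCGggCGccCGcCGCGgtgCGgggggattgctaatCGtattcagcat
HOXD4: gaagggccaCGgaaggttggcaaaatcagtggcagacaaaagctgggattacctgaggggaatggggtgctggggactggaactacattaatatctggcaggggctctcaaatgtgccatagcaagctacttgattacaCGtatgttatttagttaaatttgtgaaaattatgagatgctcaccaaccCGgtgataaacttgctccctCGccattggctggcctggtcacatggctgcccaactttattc
HOXD8: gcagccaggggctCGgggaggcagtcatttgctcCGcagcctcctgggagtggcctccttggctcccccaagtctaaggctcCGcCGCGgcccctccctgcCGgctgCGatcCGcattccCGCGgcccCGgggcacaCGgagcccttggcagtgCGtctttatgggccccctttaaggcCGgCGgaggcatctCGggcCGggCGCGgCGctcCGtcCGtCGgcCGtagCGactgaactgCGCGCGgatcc

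The HOXD4 window held 4 CG dinucleotides and the HOXD8 window 28, against 20 for HOXA9 and 24 for HOXA10. When both strands were searched, TATAAA was found in the HOXA9 and HOXA10 windows and CCAAT in those of HOXA9, HOXA10 and HOXD4. Neither motif matched on both strands of a window, and the HOXD8 window held none. The promoter table had 27 entries for 20 of the 39 members (9 HOXA, 1 HOXB, 2 HOXC and 8 HOXD genes). HOXA3 had several entries, and HOXC4 and HOXC5 had the same window, which holds CCAAT and was counted for each. Over 300 bases, which add 50 bases after the start, CCAAT was present in 66.7% of these entries and in 34.6% of 35116 promoters of all genes, and TATAAA in 18.5% and 11.5%. The E2F letters TTTCCCGC and TTTGGCGC were in none of the 27 HOX entries (1.63% and 0.652% of all promoters), and TTTCGCGC was in 1, of HOXA3 (0.515% of all). The retinoic acid receptor motif AGGTCA was in none (13.8% of all). A match or its absence describes these letters in these windows only.

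**Figure D1:**
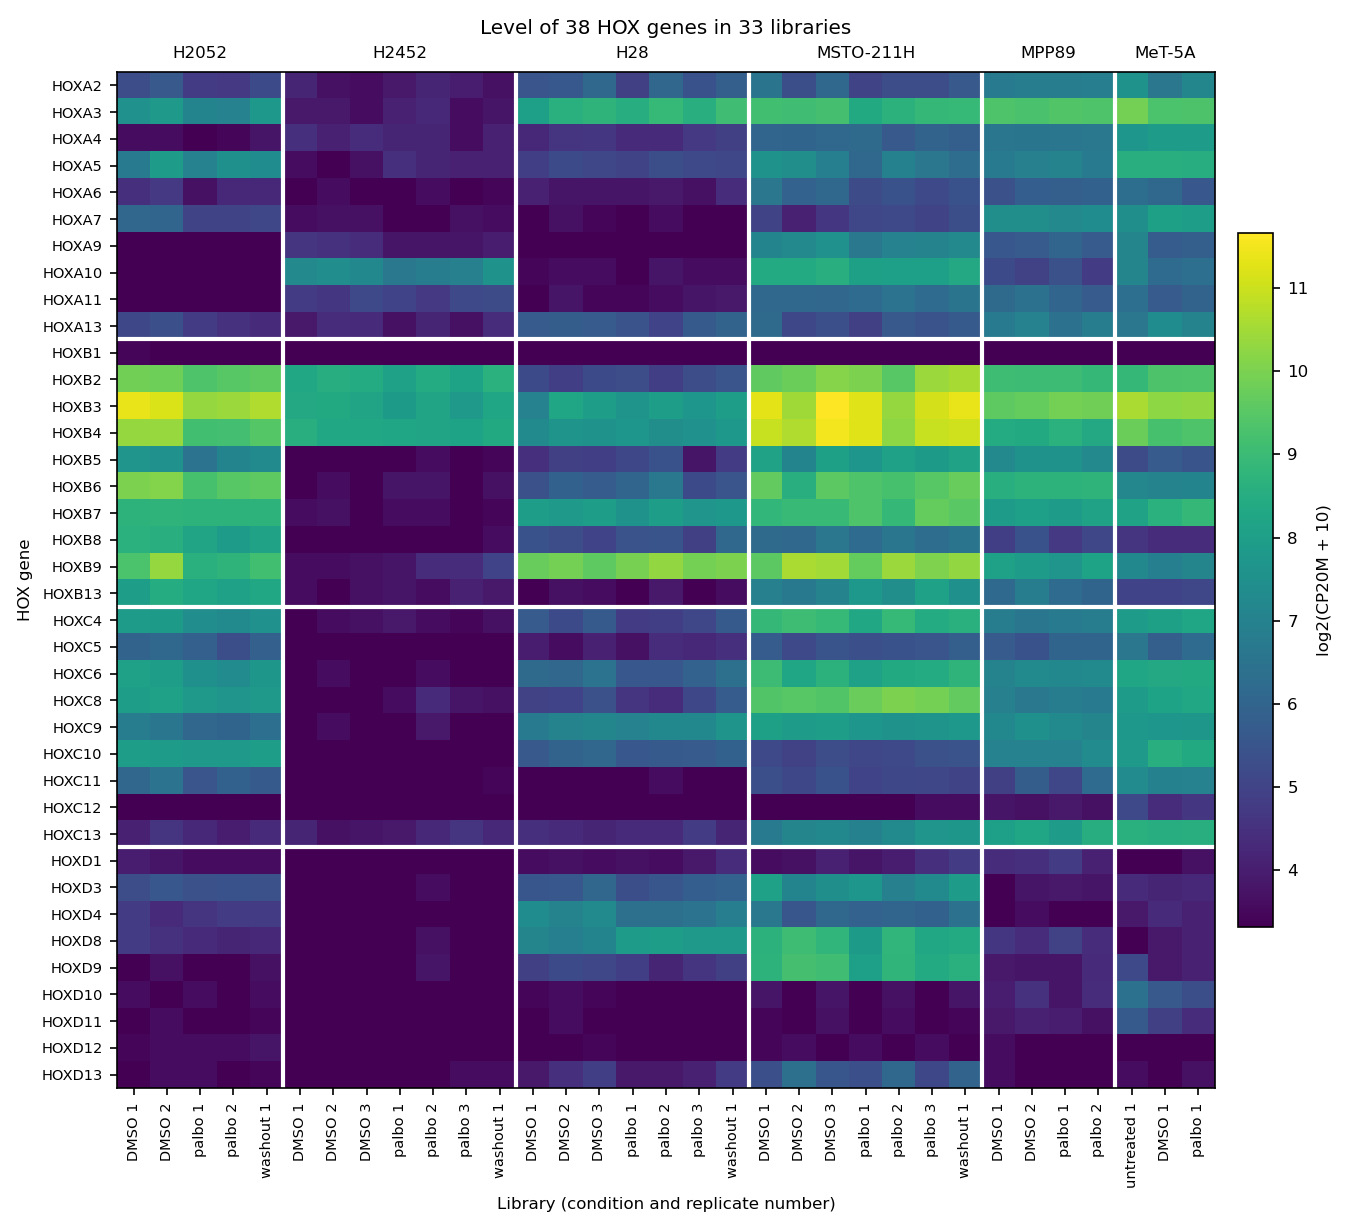
Level of 38 of the 39 HOX genes (rows, by cluster and number) in each of the 33 libraries (columns, by line and condition), as log2(CP20M + 10). Colour blocks follow the lines: the HOXC and HOXD rows are dark in H2452, whereas the HOXB rows from HOXB2 to HOXB9 are bright in H2052 and MSTO-211H.

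The lines differed in how many HOX genes were on and in which ones, with much overlap between lines (plot of levels by library). Only 9 members were on in a single line, and every member on in H2452 was also on in another line. Under DMSO, 77 of 234 gene-by-line states were on. MSTO-211H and MeT-5A each had 19 members on, H2052 and MPP89 had 14, H28 had 7 and H2452 had 4. By these states HOXB was the most used cluster, with 60% on, against 37.0% for HOXC, 24.2% for HOXA and 9.26% for HOXD. The shares depend on exon length, since a long gene reaches 100 CP20M more easily. HOXB3 (7425 bp of exon) was on in H28 at 29.2 CP20M per kb. HOXD4 (1136 bp) was intermediate in MSTO-211H at 55.2 CP20M per kb. HOXD was off in 64.8% of its states, and it had a member on only in H28 and MSTO-211H.

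HOXB3 and HOXB4, which act in the hindbrain and, for HOXB4, in blood stem cells, were the only members on in all 6 lines. HOXB4 had 1276 and 1329 CP20M in the H2052 DMSO libraries, 368, 303 and 310 in H2452, 148, 187 and 180 in H28, 1965, 1632 and 2917 in MSTO-211H, 343 and 328 in MPP89 and 587 in MeT-5A. The order of its levels was MSTO-211H, H2052, MeT-5A, MPP89, H2452 and H28, and only MPP89 and H2452 overlapped among neighbours in that order. HOXB3 ranged from 2493 CP20M (mean, n = 2) in H2052 down to 217 (n = 3) in H28, with overlap between H2052 and MSTO-211H and between H2452 and H28. Per kb of exon, HOXB4 was the highest HOX gene in H2052 (651 CP20M per kb), H2452 (163), MSTO-211H (1085) and MeT-5A (293). HOXB9, a thoracic gene, ranked first in H28 (328), and HOXB2, a hindbrain gene, ranked first in MPP89 (212).

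HOXA3, HOXB2, HOXB7 and HOXB9 were on in 5 lines, and the line left out differed. HOXA3, required for the thymus and parathyroid, had only 5, 5 and 2 CP20M in H2452, against 250 to 423 in H28, 543 to 580 in MSTO-211H, 599 and 650 in MPP89 and 626 in MeT-5A. HOXB7 had 2, 3 and 0 CP20M in H2452 and 215 to 491 in the other lines. HOXB9 had 2, 2 and 3 CP20M in H2452, and 834, 953 and 757 in H28. HOXB2 was on in H2452 (308, 353 and 341 CP20M) but had 27, 19 and 27 in H28, the only line below 100. Thus, H2452 expressed HOXB2, HOXB3 and HOXB4 at one end of the cluster with its neighbours from HOXB5 to HOXB9 all off.

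H2452 was the line with the fewest HOX genes: HOXA10, HOXB2, HOXB3 and HOXB4 were on, 4 members were intermediate and 31 were off, including every HOXC and HOXD gene. HOXA10, which patterns the lumbar spine and uterus, had 141, 159 and 137 CP20M in H2452. Its levels were 336, 329 and 362 in MSTO-211H, 65 in MeT-5A, 27 and 21 in MPP89, 1, 2 and 2 in H28, and it was listed at 0 in both H2052 libraries. All 6 lines were separated for HOXA10 with no overlap between neighbours. HOXA9, a gene of the same end of the cluster that is often high in leukaemia, had 14, 13 and 11 CP20M in H2452 and 126, 143 and 178 in MSTO-211H, and was listed at 0 in H2052 and H28. HOXA9 shares 15.9% of its exon length with a readthrough transcript on the same strand, and HOXA10 9.93%.

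MSTO-211H and H28 were the lines with HOXD genes on. In MSTO-211H, HOXD9 had 405, 579 and 538 CP20M, HOXD8 404, 528 and 440, and HOXD3 260, 126 and 167, whereas HOXD9 did not exceed 27 in any other DMSO library. In H28, HOXD4 had 157, 122 and 144 CP20M and HOXD8 129, 112 and 126, with no HOXC member on. MSTO-211H also had the highest levels of HOXC8 (658, 716 and 659 CP20M), a gene of the brachial and thoracic trunk, and of HOXC4 (456, 523 and 467). HOXC8 was listed at 0 in the H2452 controls, and for HOXC4, HOXC8 and HOXC10 no neighbours in the order of lines overlapped.

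The resistant lines shared HOXA3, HOXA7, HOXA13, HOXC6, HOXC9, HOXC10 and HOXC13 among their HOXA and HOXC genes that were on. HOXC13, a regulator of hair keratins, had 249 and 289 CP20M in MPP89 and 360 in MeT-5A, against 100 to 138 in MSTO-211H and at most 14 in the DMSO libraries of the other three lines. HOXA7 had 165 and 163 CP20M in MPP89 and 255 in MeT-5A, and the highest of the other DMSO libraries, from H2052, had 58. HOXC10, active in the hindlimb region, was highest in MeT-5A (366 CP20M), followed by H2052 (241 and 228) and MPP89 (119 and 119). HOXC11 was on only in MeT-5A (116 CP20M). H2052 was the line with the highest HOXB6 (1017 and 1092 CP20M), HOXB8 (394 and 375) and HOXB13 (243 and 350), the last of which is a prostate lineage factor.

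Of the remaining members on in some line, HOXA4 (228 CP20M), HOXA5 (375) and HOXA13 (156) were highest in MeT-5A. HOXB5 was highest in MSTO-211H (mean 218 CP20M, n = 3), as were HOXC6 (403) and HOXC9 (244). HOXC6 was on in 4 lines and had 0, 2 and 0 CP20M in H2452. HOXA2 had 179 CP20M in untreated MeT-5A cells and 88 in their DMSO counterparts. The untreated MeT-5A library had 20 members on, among them HOXA2, HOXA9 and HOXA10, which were intermediate in DMSO, while HOXA13 was not on in it. With 1 library each, the difference between untreated and DMSO cells could not be tested. HOXB1 and HOXD12 were off in all 6 lines, and 11 members were on in none.

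All 29 members that reached 100 CP20M in at least 1 library differed among the 6 lines (F test of limma, FDR below 0.05 and fold over 1.5), as did 94.6% of the 17803 genes tested. The other 10 members were too low to be tested: HOXA6, HOXA11, HOXB1, HOXC5, HOXC12, HOXD1, HOXD10, HOXD11, HOXD12 and HOXD13. The difference between the highest and the lowest line had a median of 4.70 on the log2 scale for the tested members and 1.71 for all genes. A gene that passes this minimum through one high line had to differ, so these medians are descriptive. The same holds for the contrasts of single lines with the others below.

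Against the mean of the other 5 lines, H2452 was lower for 26 of 29 members and higher for 1, HOXA10 (log2 difference +1.95 ± 0.12 SE, FDR 5.67e-08, limma). Over all genes, 29.3% were lower and 18.2% higher in H2452. The largest deficits were those of HOXB9 (-5.31 ± 0.23) and HOXA3 (-4.99 ± 0.16). H28 was lower for 17 members and higher for 5, namely HOXA3, HOXB9, HOXD3, HOXD4 and HOXD8 (29.6% and 19.7% of all genes). HOXD4 was the member furthest above the other lines in H28 (+2.88 ± 0.21), and HOXB2 the furthest below (-4.21 ± 0.13).

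MSTO-211H was higher for 24 members and lower for 2, HOXA7 and HOXC10 (21.5% and 23.0% of all genes). HOXD9 (+5.07 ± 0.15) and HOXD8 (+4.17 ± 0.13) stood furthest above the other lines. HOXD9 here, HOXD4 in H28 and HOXB8 in H2052 reached 100 CP20M only in that line. Their contrasts therefore describe the lines and are not separate evidence of a difference. H2052 was higher for 17 members and lower for 7 (20.5% and 22.5% of all genes), led by HOXB8 (+3.74 ± 0.19) and HOXB6 (+3.25 ± 0.25), and HOXA10 was the furthest below (-2.80 ± 0.14). In MPP89, 19 members differed (38.4% of all genes), 13 of them higher. MeT-5A was higher for 18 and lower for 6 (24.3% and 15.8%). HOXC13 was above the other lines in both, with a log2 difference of +2.498 ± 0.192 in MPP89 and +2.99 ± 0.26 in MeT-5A. MeT-5A had a single DMSO library, which was assumed to vary like the libraries of the other lines.

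**Figure D2:**
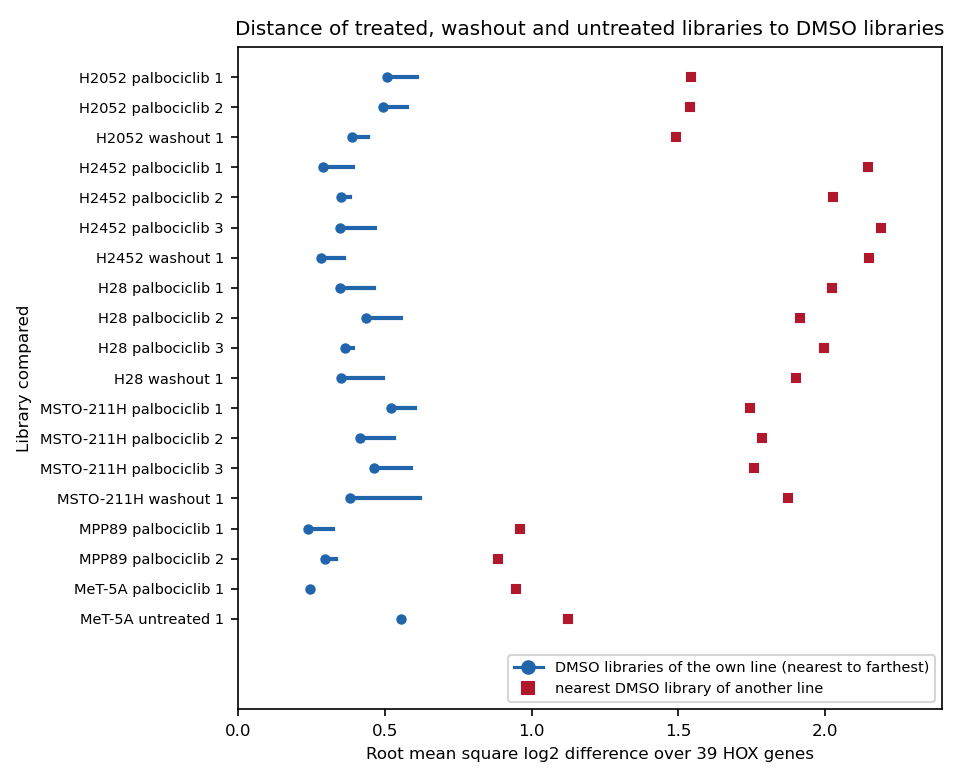
Distance of each palbociclib, washout and untreated library from the DMSO libraries, as the root mean square log2 difference over 39 HOX genes. Blue circles and lines run from the nearest to the farthest DMSO library of the same line, red squares mark the nearest DMSO library of another line, and in each of the 19 libraries the square lies to the right.

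The second question was whether prolonged CDK4/6 inhibition changed this pattern. By their HOX levels, all 14 palbociclib libraries were closest to a DMSO library of their own line, as were the 4 washout libraries and the untreated library. Most genes differed among the lines (94.6% of those tested), and no such distance was computed over other genes. Closeness to the own line was thus not shown to be particular to HOX genes. The root mean square distance to the DMSO libraries of the own line was 0.238 to 0.609 for palbociclib and 0.282 to 0.620 for washout, against at least 0.886 and 1.49 to the nearest library of another line (plot of distances to DMSO libraries). MPP89 and MeT-5A were the most alike of the lines in DMSO (0.947), and H2452 and MSTO-211H the least (3.49). The mean shift under palbociclib was 0.509 in H2052, 0.387 in MSTO-211H, 0.304 in H2452 and H28, 0.244 in MeT-5A and 0.186 in MPP89. Control replicates of one line differed by up to 0.593, in MSTO-211H.

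After palbociclib, 207 of 234 gene-by-line states (88.5%) were the same, and none went from on to off or from off to on, a switch seen for only 10 of 106818 states over all genes tested. Among members tested, 86.8% of states were the same, compared with 93.4% over all genes tested. The states were the same for 37 of 39 members in MeT-5A, 36 in MPP89, 35 in H2052 and MSTO-211H, 34 in H28 and 30 in H2452. On gave way to intermediate in 6 cases: HOXA5 and HOXA9 in MSTO-211H, HOXA10 in H2452, HOXA13 in MPP89, HOXB5 in H2052 and HOXD4 in H28. Intermediate became on in 5 cases: HOXA2 in MPP89 and MeT-5A, HOXA5 in H2052, HOXB13 in MSTO-211H and HOXC9 in H28. Some of these crossed the limit of 100 CP20M by a small step. For example, HOXA2 in MPP89 had 97 and 103 CP20M in DMSO and 107 and 108 in palbociclib. HOXA5 in H2052 became on although its mean fell, from 162.5 CP20M (95 and 230) in DMSO to 145.5 (121 and 170) in palbociclib.

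**Figure D3:**
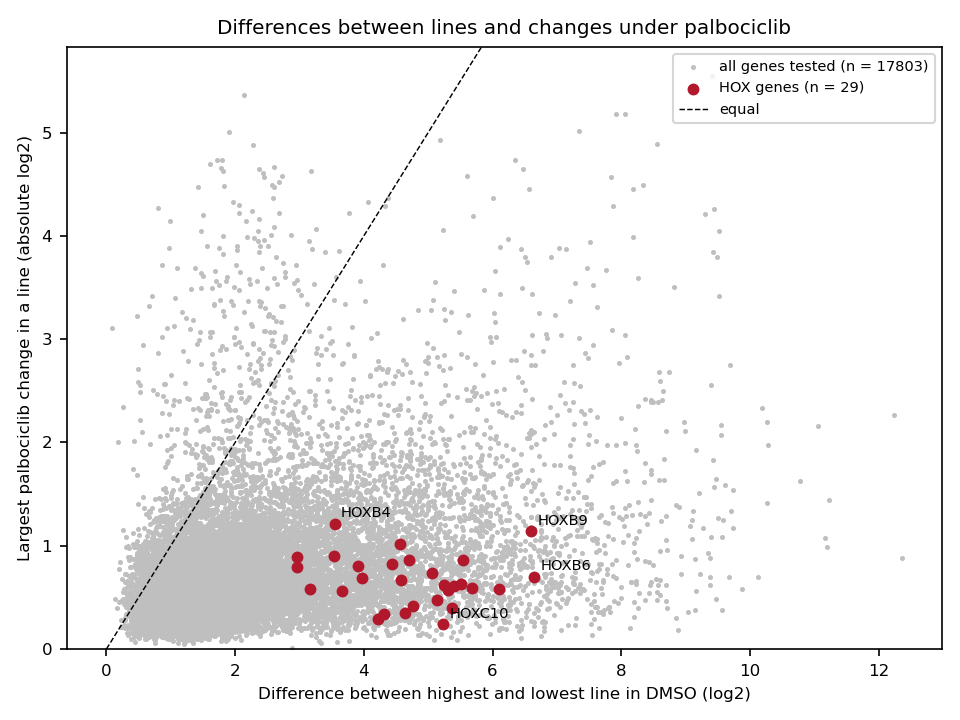
Difference between the highest and lowest line in DMSO (x axis, log2) against the largest absolute palbociclib change in any line (y axis, log2) for all 17803 genes tested (grey) and 29 HOX genes (red); the dashed line marks equal values. The HOX genes lie to the right of most genes at a similar height, and 4 members are labelled.

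The largest palbociclib shift of a member in any line had a median of 0.63 on the log2 scale, and that of all genes was 0.63 too (plot of line differences against palbociclib changes). The line with the highest level was the same in DMSO and palbociclib for 21 of 29 members. The difference between highest and lowest line was smaller after palbociclib for 20 of 29, with a median of 4.57 instead of 4.70. Neither count was made over all genes, so both describe the members only and do not set them apart.

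Over the 11 pairs of the sensitive lines, 0 of 29 HOX genes were called by limma (15.0% of all genes). This fit treats the pairs as separate units although they come from 4 lines. Its SEs and FDRs therefore do not measure the spread between lines. An unadjusted p below 0.05 was found for 10 of the 29, and for 9819 of all 17803 genes. Their median log2 change was -0.13, compared with -0.11 over all genes, and 21 members were below 0. HOXC6 had a log2 change of -0.36 ± 0.11 SE (FDR 0.0181, lower in 7 of 11 pairs). HOXB3 was lower in 10 of 11 pairs with a change of -0.32 (FDR 0.0401). HOXB3, HOXC6, HOXA9 and HOXC4 passed the FDR limit but not the fold limit of 1.5.

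**Figure D4:**
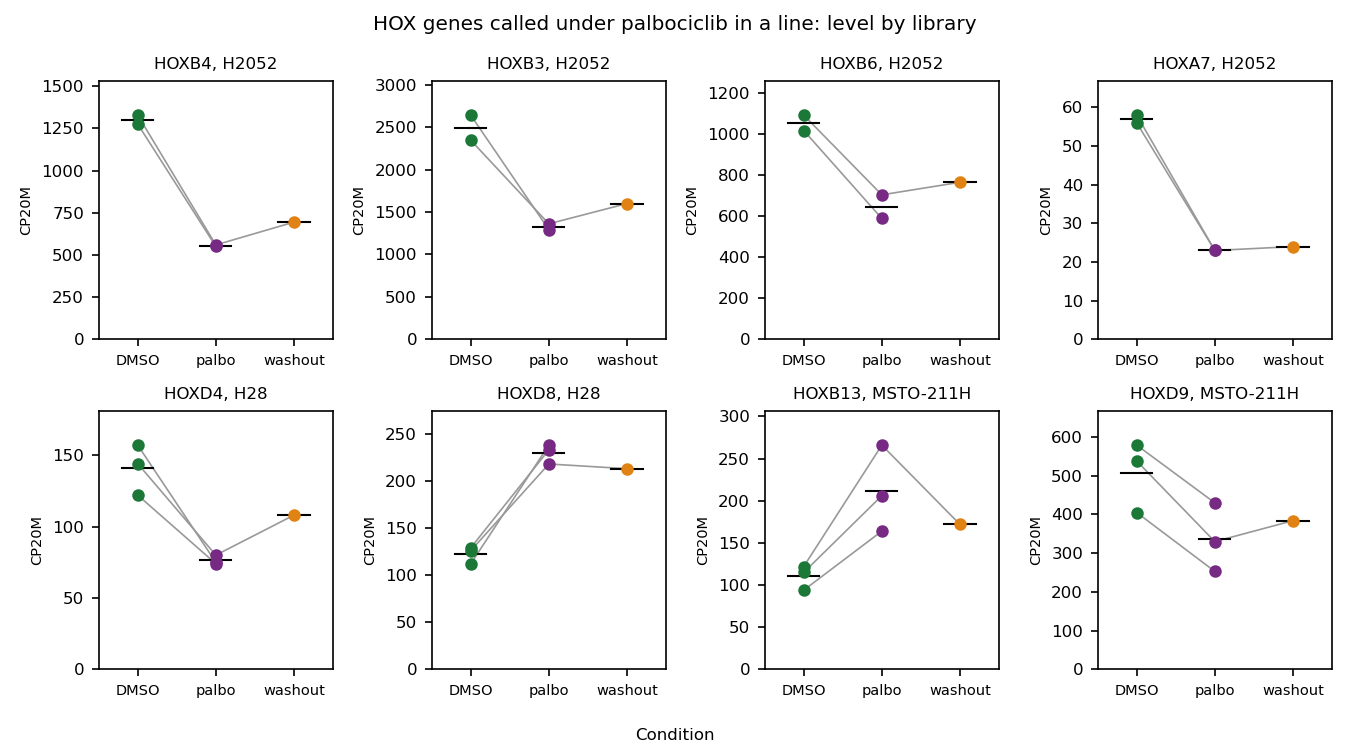
CP20M in each library of 8 HOX genes called under palbociclib in a line, with DMSO, palbociclib and washout on the x axis. Points are libraries, grey lines join libraries of one experiment and bars are means. DMSO and palbociclib libraries do not overlap for 7 of the 8, HOXD9 being the exception, and the single washout library lies between the DMSO and palbociclib means in all 8.

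H2052 had the most members lowered. HOXB4 went from 1276 and 1329 CP20M in DMSO to 551 and 560 in palbociclib, a fall of 1.21 ± 0.08 on the log2 scale (FDR 0.0359, limma, experiment as a block). HOXB3 went from 2640 and 2345 to 1292 and 1361 (-0.90 ± 0.10, FDR 0.0382). HOXB6 went from 1017 and 1092 to 589 and 704 (-0.70 ± 0.09, FDR 0.0398), and HOXA7 from 58 and 56 to 23 and 23 (-1.02 ± 0.13, FDR 0.0396). All 4 were separated without overlap, and they were all on in both conditions except HOXA7. No member rose, while 17.7% of all genes were called in H2052 and 13.0% fell. Every palbociclib library was below every DMSO library for 13 of the 16 members that reached 100 CP20M in H2052, as for 54.9% of all such genes.

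The level of all genes shifted in H2052 too, with a median of -0.24 that became +0.03 with median-of-ratios scaling. With that scaling, HOXB4 fell by 0.90 (FDR 0.0333) and HOXB3 by 0.59 (FDR 0.0468), while HOXA7 (-0.80, FDR 0.0535) and HOXB6 (-0.39, FDR 0.0755) were no longer called. With upper-quartile scaling HOXB3 was lost as well (-0.54, FDR 0.0563), and without the variance trend all 4 were. HOXB9 had the second largest mean change in H2052 (-1.14) and was not called. Its DMSO libraries had 619 and 1276 CP20M, against 379 and 419 in palbociclib. HOXB7 had 406 and 416 CP20M in DMSO and 410 and 413 in palbociclib.

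In H28, the HOXD neighbours moved apart. HOXD8 went from 129, 112 and 126 CP20M to 233, 238 and 218 (+0.86 ± 0.13, FDR 0.0310, limma), whereas HOXD4 went from 157, 122 and 144 to 75, 74 and 80 (-0.80 ± 0.14, FDR 0.0356). HOXD4 was thus the higher of the pair in all 3 experiments before treatment and HOXD8 in all 3 after it, in CP20M and per kb of exon. These were the 2 members called in H28, where 13.2% of all genes were. Part of HOXD8 (24.4% of exon length) lies opposite HOXD-AS2, and HOXD4 shares no exon. Both calls stood under other scalings and pseudocounts, but neither did when any 1 of the 3 pairs was left out.

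In MSTO-211H, HOXB13 went from 115, 94 and 122 CP20M to 206, 164 and 266 (+0.87 ± 0.16, FDR 0.0437, limma) and HOXD9 from 405, 579 and 538 to 253, 430 and 330 (-0.59 ± 0.12, FDR 0.0485). HOXB13 had no overlap between conditions, but HOXD9 had. In this line 13.8% of all genes were called. The HOXD9 call was lost with median-of-ratios scaling (FDR 0.0803), and both were lost without the pairing of experiments. HOXB3 and HOXB4, which were lower in both H2052 experiments, had 2436, 1297 and 2202, and 2401, 1188 and 1965 CP20M in MSTO-211H palbociclib libraries. Their DMSO libraries ranged from 1397 to 3223 and from 1632 to 2917 CP20M. Within experiments, HOXB3 was lower under palbociclib in every MSTO-211H pair and HOXB4 in all but the first. Neither was called in this line.

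In H2452, the 3 members called were all at low levels, and HOXA5 and HOXA9 were among them. HOXA5 went from 2, 0 and 3 CP20M to 12, 8 and 7 (+0.70 ± 0.13, FDR 0.0283, limma) and HOXA9 from 14, 13 and 11 to 4 in all 3 libraries (-0.69 ± 0.07, FDR 0.0153). Each of these values rests on few reads, and changes on the log2(CP20M + 10) scale understate such folds. Of all genes, 16.8% were called in H2452. HOXA10 had 141, 159 and 137 CP20M in DMSO and 90, 103 and 113 in palbociclib, without overlap, and was not called.

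In the resistant lines, no HOX gene was called, and no gene at all was. MPP89 had 0 of 29 members called by limma (0% of all genes, 918 of which had an unadjusted p below 0.05) and 1 with an unadjusted p below 0.05, HOXB3 (760 and 821 CP20M in DMSO, 966 and 919 in palbociclib, +0.25 ± 0.07). With MeT-5A added as the third pair, 0 members were called by limma and 2 had an unadjusted p below 0.05, HOXB3 (+0.19 ± 0.06) and HOXA13 (-0.28 ± 0.10). Of all 17803 genes, 1258 did. In MeT-5A alone, HOXB3 had 1211 CP20M in DMSO and 1257 in palbociclib, and HOXC13 360 and 374. A limma test of the difference between sensitive and resistant responses called 0 members (6.75% of all genes). It gave 1 member, HOXA9, an unadjusted p below 0.05 (-0.48 ± 0.22, FDR 0.168), and 4760 of all 17803 genes.

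**Figure D5:**
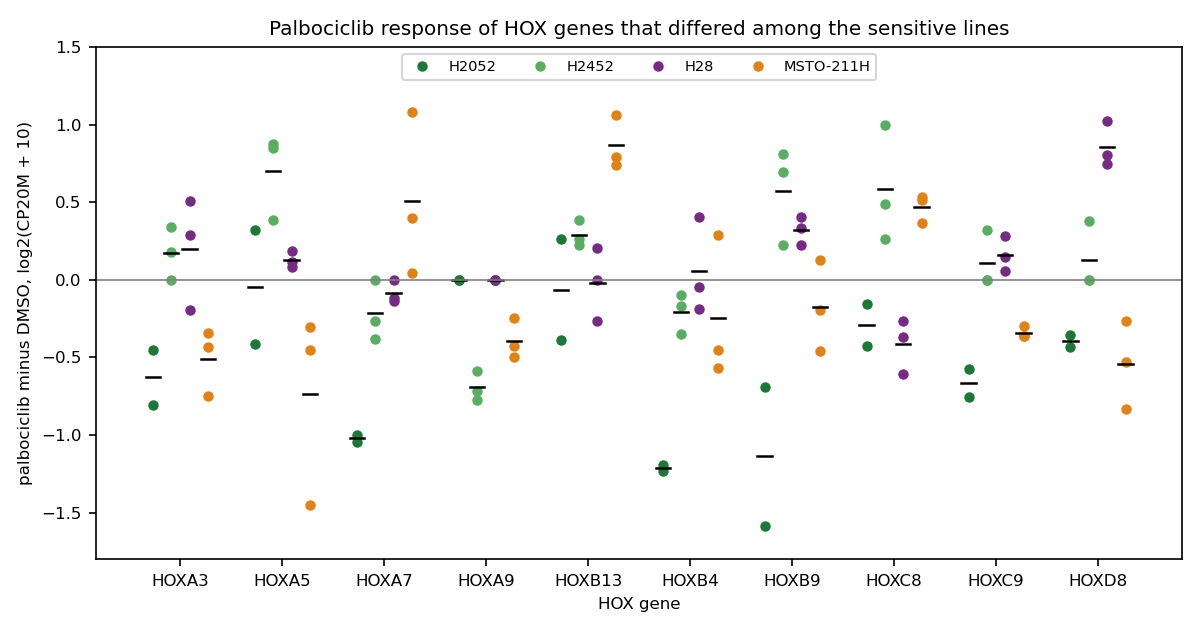
Palbociclib minus DMSO difference, as log2(CP20M + 10), in each pair of the sensitive lines for the 10 HOX genes whose response differed among these lines. Points are pairs, coloured by line, and bars are line means; HOXB9 is below 0 in both H2052 pairs and above 0 in all H2452 and H28 pairs, and HOXD8 is highest in H28.

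The response to palbociclib differed among the 4 sensitive lines for 10 of 29 members (F test of limma on the line by treatment terms). This was 34.5% of members, close to the 33.2% of all genes (plot of responses by pair). They were HOXA3, HOXA5, HOXA7, HOXA9, HOXB4, HOXB9, HOXB13, HOXC8, HOXC9 and HOXD8. HOXB9 had the widest spread of line means, from -1.14 in H2052 to +0.57 in H2452 (FDR 0.00435). The upper end rests on 2, 2 and 3 CP20M in DMSO and 4, 11 and 11 in palbociclib. Its levels in H28 were 834, 953 and 757 CP20M in DMSO and 977, 1264 and 955 in palbociclib (+0.32). HOXC8 had 658, 716 and 659 CP20M in MSTO-211H controls and 849, 1026 and 957 in palbociclib (+0.47), and went from 246 and 263 to 220 and 193 in H2052 (-0.29) and from 21, 22 and 32 to 14, 11 and 25 in H28 (-0.41).

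HOXD8 differed with the lowest FDR (0.00315). Its mean difference was +0.86 in H28 and -0.54 in MSTO-211H, where it had 404, 528 and 440 CP20M in DMSO and 222, 437 and 302 in palbociclib. HOXA7 ranged from -1.02 in H2052 to +0.51 in MSTO-211H (FDR 0.00962), both at less than 60 CP20M. HOXA5, a gene of lung development, had 179, 164 and 111 CP20M in MSTO-211H and 59, 117 and 88 after palbociclib (-0.74). Without the pairing, 4 members were called, namely HOXA7, HOXB9, HOXC8 and HOXD8. Without H2452 replicate 1 or H28 replicate 1, 6 were called.

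Washout libraries gave the levels 48 h after drug removal. The washout fits estimated a common effect across the sensitive lines, so they could not show whether a change called in a single line persisted. Between DMSO and washout, 139 of 156 states in the sensitive lines (89.1%) were the same and none switched between on and off, while over all genes tested 32 of 71212 states did. The state was the same in 89.7% of cases for the members tested and in 91.8% for all genes. One member that was on in DMSO was intermediate after washout, HOXA5 in MSTO-211H, with 68 CP20M. By limma, 0 of 29 members differed between washout and palbociclib (1.40% of all genes). HOXA3 (+0.38 ± 0.17) and HOXB3 (+0.30 ± 0.11) had an unadjusted p below 0.05, as did 2322 of all 17803 genes. Between washout and DMSO, 0 were called (5.76% of all genes) and none had an unadjusted p below 0.05, compared with 5265 of all 17803 genes. The median difference from DMSO was 0.00, against -0.05 over all genes.

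Values of the members called under palbociclib stood at varied points after washout. In H2052, HOXB4 had 695 CP20M, still 0.93 below the DMSO library of the same experiment on the log2 scale, as HOXB3 was by 0.55 (1599 CP20M) and HOXA7 by 0.96 (24 CP20M). HOXD8 in H28 had 213 CP20M, close to the 218 of palbociclib, and HOXD4 had 108, between 80 in palbociclib and 144 in DMSO. HOXB13 in MSTO-211H had 172 CP20M, between 122 and 266. HOXA9 in H2452 was at 6 CP20M, between 4 and 11. Each is 1 library, and these single values were not tested.

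Partners and regulators of HOX genes were read from gene lists over the same 11 pairs, in which 5.58% of all genes rose and 9.37% fell. Here too, SEs and FDRs treat pairs from 4 lines as separate units. Of 8 cofactors of the TALE homeodomain class, which bind DNA together with HOX proteins, 1 rose, MEIS3 (+0.73 ± 0.15, FDR 0.00152, limma), and 2 fell, MEIS1 among them (-0.66 ± 0.13, FDR 0.00103). Of 23 Polycomb genes, 4 fell and none rose, with EZH2, the histone H3 lysine methyltransferase, at -1.97 ± 0.12 (FDR 2.81e-07, lower in 11 of 11 pairs), PHF19 at -1.90 and CBX2 at -1.18. Of 13 Trithorax and activator genes, 3 fell, PSIP1 (-1.08), DOT1L (-0.98) and CTCF (-0.67). The medians of both lists were -0.27, against -0.11 over all genes. Of 12 genes of retinoid signalling and the CDX family, DHRS3 rose (+0.80) and CRABP2 fell (-1.14).

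Noncoding and readthrough transcripts of the clusters differed between the lines too. Of 14 tested, 11 were lower and 1 higher in H2452 than in the other lines, 10 were lower and 2 higher in H28, and 9 were higher and 1 lower in MSTO-211H. The shares over all genes were 29.3% and 18.2%, 29.6% and 19.7%, and 21.5% and 23.0%. HOXA10-AS had a DMSO mean of 207 CP20M in MSTO-211H and 75 in H2452, and was listed at 0 in H2052, the same order as HOXA10. HOTAIR reached 83 CP20M in MeT-5A. None was called over the 11 pairs, and in H2052 3 fell (13.0% of all genes): HOXA-AS3 (-1.13), HOXB-AS3 (-0.79) and HOXB-AS1 (-0.63). HOXA-AS3 lies opposite HOXA7, which fell there too. Of 9 genes flanking the clusters, CALCOCO1 rose (+0.66). Among markers, 1 of 11 mesothelial genes was called, CALB2 (+1.69 ± 0.41, FDR 0.00409), and 0 of 3 of other cell types.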

How the data were processed

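RNA was sequenced by the study from directional, paired-end libraries. Per the labels and methods, the authors trimmed reads with Trimmomatic 0.36, aligned them to GRCh38 with STAR 2.5.3 and counted them with HTSeq 0.9.1. The deposited values are a score, CP20M: counts scaled to 20 M reads and rounded up to whole numbers, so that column totals (20007662 to 20021400) do not show depth. The scaling was not undone, and count models were not used.

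Samples were grouped by the labels. A gene was tested when it reached 100 CP20M in any of the 33 libraries (17803 genes), using limma 3.58.1 (R 4.3.3, eBayes with trend) on log2(CP20M + 10), with Benjamini-Hochberg FDR over all of them. A call needed FDR below 0.05 and a fold over 1.5. Treatment fits took the experiment as a block: numbers in the titles mark the experiment, and deviations of same-numbered DMSO and palbociclib libraries correlated in all 13 pairs that could be compared (r 0.181 to 0.783). Deviations were taken from the line mean, so the 13 values are not separate. Both pairs of H2052 had the same r by construction (0.337), as had both of MPP89 (0.783). No separate origin of cultures is stated beyond the experiments, so p-values measure the spread between these samples. No 2 replicate libraries were alike (at most 4.33% of equal values over 22 pairs). Scripts were tested on simulated data, in which the single-line palbociclib fits missed part of the changes under this filter, and the H2052 fit all of them, so that a gene not called in a single line is weak evidence. Positions and exon overlaps are from GENCODE 44 and promoters from RefSeq, GRCh38.p14.

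One HOX gene and one cofactor are not reported by name here. Other members on in the DMSO libraries of at least 1 line, or called in a palbociclib, washout or interaction fit, are named with values, and up to 3 called genes per list and direction. Members and lists were chosen with earlier results of these data known. Alternatives were the pseudocount, the filter, scaling, variance trend, pairing and leaving out replicates. For the pooled sensitive lines, line means as units and pairs of a single treatment length were run too.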

Additional observations from a re-analysis of the deposited data

Results flagged for a closer look

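The palbociclib response of 10 of 29 HOX genes (34.5%) differed among the 4 sensitive lines by the F test of limma on the line by treatment terms. That share was close to the 33.2% of all genes tested. In the HOXA cluster, the FDR was 0.0291 for HOXA3, 0.0235 for HOXA5, 0.00962 for HOXA7 and 0.0215 for HOXA9. HOXA3 was lower in both H2052 pairs and all 3 MSTO-211H pairs. For HOXA9 the test sets H2452 and MSTO-211H, where it was lower in all pairs, against H2052 and H28, where it was listed at 0 throughout.

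In the HOXB cluster, the FDR was 0.0124 for HOXB4, 0.00435 for HOXB9 and 0.0279 for HOXB13. The HOXB13 mean was +0.87 in MSTO-211H and between -0.06 and +0.29 in the other three lines. The FDR was 0.0122 for HOXC8, 0.0236 for HOXC9 and 0.00315 for HOXD8. HOXC9 had 105 and 87 CP20M in H2052 controls and 58 and 55 after palbociclib, with a mean difference of -0.67, and was higher in all 3 H28 pairs by a mean of 0.16. The responses of HOXB9 and HOXC8 differed among lines under all 19 alternatives run, and that of HOXD8 under 18 of 19. HOXA7 was called under 17 of 18, HOXB4 under 15 of 19, HOXA5 under 14, HOXA9 and HOXB13 under 13, HOXA3 under 12 and HOXC9 under 11. No group had more than 3 libraries, so single libraries were not screened as outliers.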

How the results depend on the processing

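Over 11 pairs, 1 member instead of 0 was called with a pseudocount of 1. In H2052 (4 called), 2 were called with a pseudocount of 1, 1 without a filter, 8 with the filter applied within the fit, 2 with median-of-ratios and 2 with upper-quartile scaling, and 0 without the variance trend, where no gene was called. Leaving out a pair there left 1 pair and no test. In H2452 (3 called), 5 were called with a pseudocount of 1, 0 with 50, 0 with the filter within the fit, which left 4 members, and 0 to 1 without one replicate. In H28 (2 called), leaving out a replicate gave 0 to 0. In MSTO-211H (2 called), 1 was called with a pseudocount of 1 or of 50, 0 without a filter, 0 without the replicate block, and 0 to 0 without one replicate. Responses differing among sensitive lines (10) numbered 4 without the replicate block and 6 to 14 without one replicate. The replicate block changed no other count of calls by over 1.5 times. Counting a gene as on from 20 CP20M gave 133 on states instead of 77, and 1 change between on and off after washout instead of 0. All other counts stayed within 1.5 times, 281 of 307 in all, and no sign reversed. Over all genes, other scaling turned the split of calls from 994 up and 1669 down to 1759 and 920 (median of ratios) or 1661 and 979 (upper quartile) in the 11 pairs, and from 832 and 2311 to 1621 and 670 or 2083 and 786 in H2052. The cause was not tested. Below about 10 CP20M a value rests on a handful of reads.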
